A study of Vulpes lagopus with 12 samples.

Results

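The genes described here present peptides to T cells in blood of the Arctic fox (Vulpes lagopus): 6 genes of the MHC class I route (DLA88, B2M, TAP1, TAP2, TAPBP and NLRC5) and 3 of the class II route (CD74, CIITA and CTSS). They were chosen by name, and every probe set whose only gene symbol in the probe annotation was one of these 9 was taken. All 9 genes had such a probe set, 21 in all (14 of class I and 7 of class II) of 42924 probe sets tested. A further 2 probe sets, annotated to both DLA88 and DLA-64, were left out. The series holds 11 arrays of Arctic fox blood cells and 1 array titled a canine control, hybridised to an Affymetrix array designed against the dog. The study concerns exposure of the foxes to mercury and PCBs, a class of long-lived chlorinated pollutants. The labels give no exposure, sex, age or batch for single foxes, so the foxes form 1 group and are numbered 1 to 11 in the order of the series. Nothing in the labels states that they were 11 different animals, so the spread between arrays may be partly technical.

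MHC class I molecules stand on nearly all nucleated cells and show peptides cut from proteins inside the cell. The heavy chain (DLA88 in the dog) is held by the light chain beta-2 microglobulin (B2M), peptides reach it through the transporter formed by TAP1 and TAP2, tapasin (TAPBP) bridges transporter and heavy chain, and NLRC5 is the transactivator of these genes. MHC class II molecules stand on cells that include B cells, monocytes and dendritic cells, and show peptides from material taken up. The invariant chain CD74 guides them to endosomes, the protease cathepsin S (CTSS) cuts it away there, and CIITA is the transactivator of class II genes.

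Values are log2 expression after RMA normalization by the authors. A difference of 1 on this scale is a doubling. Array medians ran from 7.06 to 7.17 in the foxes and stood at 6.85 on the control array, and the number of arrays limits the precision. Foxes 9, 10 and 11 stood apart on a quality measure of the array, the GAPDH 3' minus middle difference (0.42 to 1.08, where foxes 1 to 8 had 2.56 to 3.19 and the control had −0.08). An actin measure of the same kind separated them too (0.16 to 0.26, against 2.14 to 5.21), but an EF1a measure and a second pair of GAPDH and actin measures overlapped with foxes 1 to 8. The blood label of the control array went against its markers. The mean of 11 genes of liver and gut was 6.11 to 6.40 in the foxes and 13.47 on the control, and that of 7 neutrophil genes was 9.94 to 12.16 in the foxes and 7.09 on the control. The organism label of the control array is Arctic fox while its title says canine, so its species is not settled by the labels either. The control therefore stands for 1 array of unsettled species and tissue, not for dog blood. Differences of the 9 genes from the control are also given without foxes 9, 10 and 11 where a call changed or the value moved by over 1.5 times, and those of other genes with all 11 foxes only.

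Foxes 9, 10 and 11 carried more class I heavy chain and light chain signal than any of the others. DLA88 read 12.77, 12.42 and 11.33 in foxes 9, 10 and 11, and between 6.93 and 8.31 in foxes 1 to 8 (fox 6 lowest, fox 8 highest). That gap was wider than the whole range of the other 8 foxes. B2M reached 15.24, 15.20 and 15.20 in foxes 9, 10 and 11, and between 13.11 and 14.77 in foxes 1 to 8, by the probe set with the higher mean (set 1). The highest values anywhere on these arrays lay between 15.28 and 15.64, so B2M was close to the top of the scale. By its second probe set B2M read 14.94, 14.68 and 14.73, against 11.57 to 13.26. In bulk blood, fewer cells of a type and less RNA per cell cannot be told apart.

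The transporter genes TAP1 and TAP2 ran the same way by some of their probe sets. TAP1 read 9.71, 11.07 and 10.18 in foxes 9, 10 and 11 by set 1, and between 7.64 and 9.04 in foxes 1 to 8. Its set 3 read 9.39, 8.97 and 8.90, against 6.64 to 7.37. Its set 2 hardly moved (8.41, 8.38 and 7.99, against 7.92 to 8.17). TAP2 read 12.24, 12.58 and 11.79 by set 1, against 10.41 to 11.88, so that fox 2 at 11.88 lay above fox 11. TAP2 set 3 overlapped as well, with 8.64, 9.09 and 8.004 against 6.82 to 8.10. TAP2 set 2 went the other way, with 10.55, 10.28 and 9.94 against 10.39 to 11.84, the top being fox 1.

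The probe sets of tapasin and of the class I transactivator did not follow the heavy chain. TAPBP was lower in foxes 9, 10 and 11 by set 1 (7.91, 7.68 and 8.04, against 8.06 to 8.55 in foxes 1 to 8) and overlapped by set 2 (6.44 to 6.63, against 6.46 to 7.04). NLRC5 overlapped by set 1 (7.80, 7.48 and 7.26, against 7.05 to 7.80). By set 2 NLRC5 was a little lower, at 6.79, 6.68 and 6.58, against 6.82 to 7.03. The whole spread of NLRC5 over 11 foxes, an SD of 0.24 by set 1 and 0.13 by set 2, was small beside the SD of 2.23 of DLA88 set 1. The fox mean of NLRC5 lay at percentile 57.2 of all probe sets by set 1 and 42.3 by set 2. Whether these sets read fox NLRC5 was not tested.

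**Figure D1:**
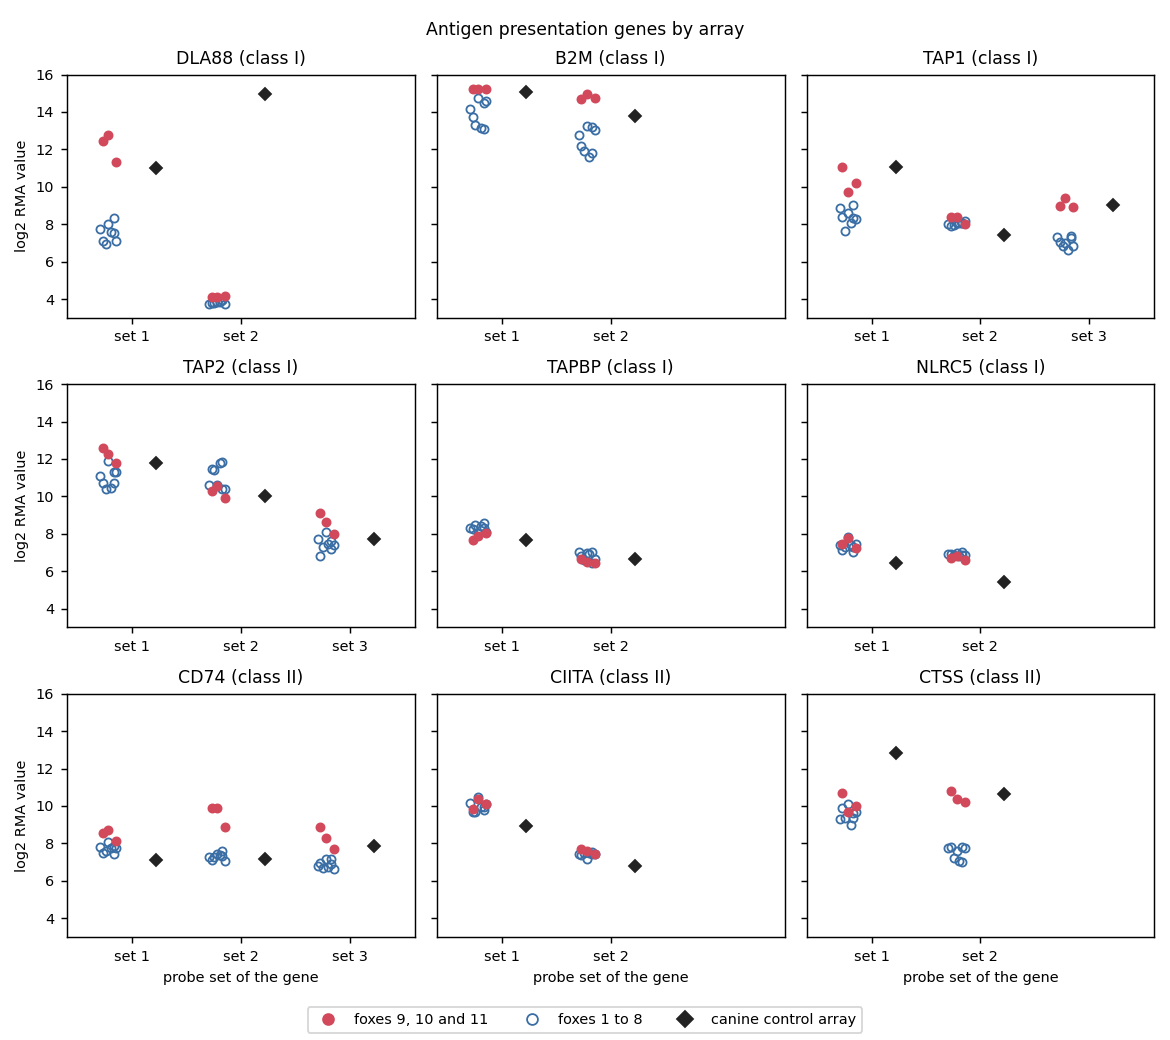
Log2 RMA value (vertical axis) of every probe set of the 9 antigen presentation genes, with 1 panel per gene and probe sets numbered by falling mean over the 12 arrays. Red filled circles are foxes 9, 10 and 11, open blue circles are foxes 1 to 8, and black diamonds are the canine control array. DLA88 set 1 splits the foxes into 11.33 to 12.77 and 6.93 to 8.31, while on DLA88 set 2 all foxes lie between 3.73 and 4.17 and the control at 14.97.

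Among the class II genes the invariant chain separated the same arrays. CD74 read 9.87, 9.91 and 8.87 in foxes 9, 10 and 11 by set 2, and between 7.05 and 7.58 in foxes 1 to 8. Set 1 (8.73, 8.53 and 8.14, against 7.46 to 8.09) and set 3 (8.30, 8.90 and 7.69, against 6.65 to 7.15) of CD74 did not overlap either. The steps were unequal: fox 11 cleared fox 2 by little on set 1 and was the lowest of foxes 9, 10 and 11 on all 3 sets. The CD74 ranges of foxes 1 to 8 stand beside array medians of 7.06 to 7.17 in the foxes. Whether the 3 sets read fox CD74 was not tested.

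CTSS and CIITA differed from each other. CTSS read 10.37, 10.81 and 10.19 by set 2, against 7.004 to 7.82 in foxes 1 to 8. Its set 1 overlapped, with 9.68, 10.68 and 9.99 against 8.96 to 10.12. CIITA did not separate these foxes by either probe set. It read 10.39, 9.82 and 10.11 by set 1, against 9.69 to 10.50, and 7.59, 7.70 and 7.44 by set 2, against 7.17 to 7.52. Neither transactivator, NLRC5 or CIITA, thus had a probe set on which foxes 9, 10 and 11 all lay above the others.

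Counted over all 21 probe sets, 10 (47.6%) had foxes 9, 10 and 11 all above foxes 1 to 8, beside 12.6% of all probe sets, and 2 (9.52%) had them all below, beside 14.6%. The 10 were 6 of 14 in class I and 4 of 7 in class II. An SD of at least 0.5 over the 11 foxes was reached by 11 of 21 probe sets (52.4%), beside 14.8% of all. Without foxes 9, 10 and 11 it was reached by 4 of 21 (19.0%), beside 7.0% of all, and the 4 were both sets of B2M and sets 1 and 2 of TAP2. The median SD of the 21 was 0.66 over 11 foxes and 0.26 over foxes 1 to 8, where that of all probe sets was 0.22 and 0.18. No test was made on this split, since the labels do not give it. Whether it goes with the GAPDH measure, with the array SD, with cell makeup or with the animals was not tested.

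Some markers of other cells moved with the same foxes. Of all genes, 14.2% had foxes 9, 10 and 11 all above foxes 1 to 8, and 14.6% had them all below. The mean of 9 monocyte genes was 11.03 to 11.23 in foxes 9, 10 and 11, and between 9.56 and 10.26 in foxes 1 to 8, and 7 of the 9 did not overlap. CD14, the monocyte receptor for bacterial lipopolysaccharide, and VCAN, a matrix proteoglycan of monocytes, were among the 7. The mean of 13 T cell genes was 8.27 to 8.49, against 7.68 to 8.08, with 4 of 13 above. Class II belongs to B and dendritic cells too, and there the lists overlapped. The mean of 13 B cell genes was 7.07 to 7.26, against 7.13 to 7.31, with 1 gene (BANK1) above, and that of 10 dendritic cell genes was 7.23 to 7.41, against 7.09 to 7.25, with 1 above and 2 below. Both means lay near the array medians of the foxes (7.06 to 7.17), and there is no detection call. Whether these cells differed between the foxes cannot be read from that overlap. The neutrophil mean was 11.02 to 12.16, against 9.94 to 11.39, with 2 of 7 above. The mean of 19 interferon-stimulated genes was 7.85 to 7.94, against 7.38 to 7.83, with 4 of 19 above. The part of these cells in the antigen presentation values was not tested.

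Other genes of the 2 routes were read from lists fixed by name, each gene by its probe set with the highest mean. In class I, 9 of 19 partner genes had foxes 9, 10 and 11 all above foxes 1 to 8, beside 14.2% of all genes, and 0 had them below, beside 14.6%. PSMB8, a catalytic subunit of the immunoproteasome that cuts peptides for class I, read 11.25 to 11.98, against 7.97 to 9.82. PSMB8 lies between TAP1 and TAP2 in the RefSeq annotation of the Arctic fox. PSMB9, another such subunit, read 12.23 to 13.38, against 9.79 to 11.40. PDIA3, the disulfide isomerase of the peptide-loading complex, read 10.29 to 11.04, against 6.83 to 8.56.

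The trimming step, named after its values were seen, did not share this pattern. The aminopeptidases ERAP1 (7.46 to 7.80, against 7.42 to 7.76) and ERAP2 (6.05 to 6.57, against 6.52 to 6.70) both overlapped. Their fox means were 7.57 and 6.55, beside array medians of 7.06 to 7.17 in the foxes. Whether these 2 probe sets read the fox genes was not tested. Of the non-classical class I genes, DLA-64 overlapped too (7.44 to 8.55, against 7.004 to 7.98), while DLA-79 lay above in foxes 9, 10 and 11 (8.53 to 8.91, against 7.98 to 8.32). Class I genes are close relatives in sequence, so a probe set of one can read another, and DLA88, DLA-64 and DLA-79 are uncertain to that extent.

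In class II, 7 of 18 partner genes lay above in foxes 9, 10 and 11 and 1 below, beside 14.2% and 14.6% of all genes. The chains DLA-DRA (14.12 to 14.37, against 11.95 to 13.80) and DLA-DQB1 (10.20 to 11.26, against 6.98 to 8.40) were among the 7, with HLA-DRB1 (13.84 to 14.29, against 11.70 to 13.36) as the array annotation calls it. CTSB, an endosomal protease, read 15.02 to 15.08, against 11.80 to 13.69. The 1 below, named after its values were seen, was DLA-DOA, whose chain restrains peptide exchange, at 9.29 to 9.73, against 9.75 to 10.47. The rest of the 18 overlapped. Among them were the alpha chain DLA-DQA1 (6.49 to 7.53, against 5.99 to 6.78) and the peptide exchanger DLA-DMA (8.52 to 9.61, against 7.48 to 8.81). Of 18 genes for transcription factors and interferon signals that act on MHC promoters, 7 lay above and 1 below, beside the same shares of all genes. The 7 include RFXANK and RFX5, subunits of the factor that binds the X box of MHC promoters. RFXAP, another of its subunits, overlapped (7.48 to 7.57, against 7.51 to 7.72). IRF1, an interferon-induced activator of class I, was among the 7 too. IRF1 read 9.27 to 9.79, against 7.72 to 8.46. NFKB1 was the one below, at 11.26 to 11.36, against 11.95 to 13.27.

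**Figure D2:**
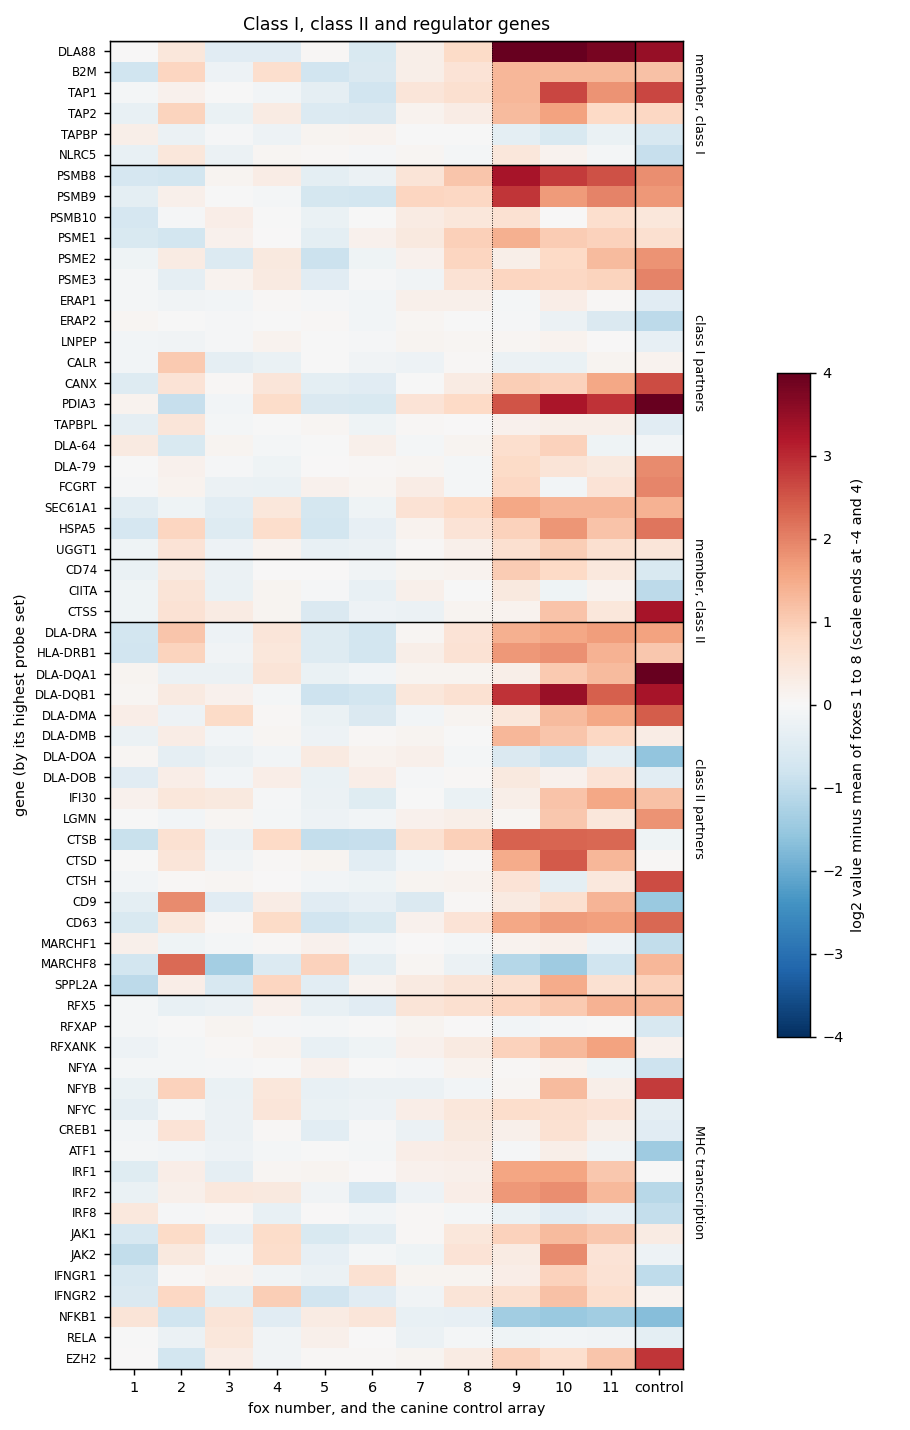
Log2 value minus the mean of foxes 1 to 8, as colour, for 9 antigen presentation genes and 55 partner and regulator genes (rows, grouped by list) on 11 fox arrays and the canine control (columns); the colour scale ends at −4 and 4. DLA88, PSMB8, PSMB9, PDIA3 and DLA-DQB1 are dark red in foxes 9, 10 and 11, while ERAP1, ERAP2, NLRC5 and CIITA stay pale there.

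The comparison of foxes with the control array asks which antigen presentation genes lay outside the level of that array. CIITA and NLRC5 were higher in the foxes by both of their probe sets, CTSS was lower by 1 of 2, and DLA88 was far lower by 1 of 2. CIITA averaged 10.01 ± 0.27 (SD, n = 11) in the foxes and stood at 8.93 on the control, which is 1.09 higher on the log2 scale (SE 0.27, adjusted p 0.00445 by limma). Its set 2 averaged 7.46 ± 0.13 (SD, n = 11) in the foxes and stood at 6.79 on the control, a difference of 0.67 (SE 0.15, adjusted p 0.00316 by limma). All 11 foxes lay above the control on both sets. The call of CIITA set 2 was lost when each array was centred on its own median (0.40, adjusted p 0.0704 by limma) and after quantile normalization again (0.40, adjusted p 0.0616 by limma).

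NLRC5 averaged 7.39 ± 0.24 (SD, n = 11) in the foxes by set 1 and stood at 6.44 on the control, a difference of 0.96 (SE 0.24, adjusted p 0.00543 by limma). Its set 2 averaged 6.85 ± 0.13 (SD, n = 11) in the foxes and stood at 5.42 on the control, a difference of 1.43 (SE 0.15, adjusted p 9.07e-06 by limma). All 11 foxes were above the control on both sets. These differences stand beside a median of 0.46 over all probe sets, and the control array lay below all 11 foxes on 7 of the 21 probe sets (55.1% of all probe sets did) and above all 11 on 3 (21.9% of all did). TAP1 set 2, at 8.09 ± 0.16 (SD, n = 11) in the foxes and 7.43 on the control, was the fifth probe set called higher (0.66, SE 0.18, adjusted p 0.00726 by limma). Centring each array took that call away (0.40, adjusted p 0.102 by limma).

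The lower calls were of DLA88 and CTSS. DLA88 set 2 lay between 3.73 and 4.17 in the foxes, with a median of 3.84, and at 14.97 on the control, a difference of −11.06 (SE 0.18, adjusted p 2.32e-13 by limma). The lowest value of the whole table was 3.23, so this probe set was near the bottom of the scale in every fox and near the top on the control. The size of that difference is therefore set by the bottom of the scale and is not a measured fold. On set 1 of the same gene, foxes 9, 10 and 11 lay above the control at 11.00 and foxes 1 to 8 below, and the difference of −2.20 (SE 2.10) was not called (adjusted p 0.372 by limma). Without foxes 9, 10 and 11 it was −3.47 (adjusted p 9.08e-05 by limma). The probes of both sets were designed against dog sequence, and whether they match fox sequence was not tested. CTSS averaged 9.70 ± 0.47 (SD, n = 11) in the foxes by set 1 and stood at 12.85 on the control, a difference of −3.15 (SE 0.45, adjusted p 1.24e-04 by limma), with all 11 foxes below. After quantile normalization again it was −2.09 (adjusted p 1.75e-04 by limma). By set 2 the foxes averaged 8.31 ± 1.42 (SD, n = 11) and the control stood at 10.63. That difference of −2.33 (SE 1.34) was not called (adjusted p 0.145 by limma), and fox 10 lay above the control. Without foxes 9, 10 and 11 it was called, at −3.13 (adjusted p 2.44e-05 by limma).

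In all, limma called 7 of 21 probe sets (33.3%), beside 61.0% of all. Of these, 5 were higher in the foxes (23.8%, beside 42.1% of all) and 2 lower (9.52%, beside 18.9% of all). The median difference of the 21 was 0.01, against 0.46 for all. With arrays centred on their medians the split of all called probe sets moved to 9914 higher and 9348 lower, in place of 18091 and 8092, and after quantile normalization again it was 12648 and 7755. The lone control is taken by limma to vary like the foxes. An exact two-sided permutation test of 11 arrays against 1 cannot go below p = 0.0833.

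Members not called lay on either side. B2M differed by −0.82 (SE 0.79) by set 1 and by −0.71 (SE 1.16) by set 2, with 3 of 11 foxes above the control on each. Without foxes 9, 10 and 11 set 2 of B2M was at −1.35 and still not called (adjusted p 0.0658 by limma). TAP2 set 1 differed by −0.50 (SE 0.70), set 2 by 0.84 (SE 0.62) and set 3 by 0.01 (SE 0.63). Without foxes 9, 10 and 11 sets 1 and 3 of TAP2 were at −0.83 and −0.30, neither called. TAP1 lay lower in the foxes by set 1, at −2.15 (SE 0.96, adjusted p 0.0694 by limma), with 0 of 11 foxes above the control. It was called without fox 10 (−2.36, adjusted p 0.0141 by limma), without fox 11 (−2.27, adjusted p 0.0492 by limma) and without foxes 9, 10 and 11 (−2.67, adjusted p 2.95e-04 by limma). TAP1 set 3 differed by −1.44 (SE 0.93), and by −1.997 without foxes 9, 10 and 11 (adjusted p 9.17e-05 by limma). TAPBP set 1 stood 0.52 higher (SE 0.26, adjusted p 0.0974 by limma) in 11 of 11 foxes, and was called without fox 10 (0.57, adjusted p 0.0348 by limma) and without foxes 9, 10 and 11 (0.64, adjusted p 0.00936 by limma). TAPBP set 2 differed by 0.08 (SE 0.24), and by 0.16 without foxes 9, 10 and 11.

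The 3 probe sets of CD74 did not point the same way. Set 1 differed by 0.81 (SE 0.40), set 2 by 0.73 (SE 1.03) and set 3 by −0.61 (SE 0.70), and none was called, with adjusted p-values by limma between 0.0937 and 0.55. Without foxes 9, 10 and 11, set 1 was called higher in foxes 1 to 8 (0.60, adjusted p 0.0251 by limma) and set 3 lower (−0.996, adjusted p 0.0016 by limma). CD74 set 2 was at 0.12 without them. Leaving these foxes out gave 7 of 21 probe sets called higher, in place of 5 with all 11 foxes, and 7 called lower, in place of 2. Of all 42924 probe sets, 21078 were called higher and 9840 lower in that setting, in place of 18091 and 8092.

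**Figure D3:**
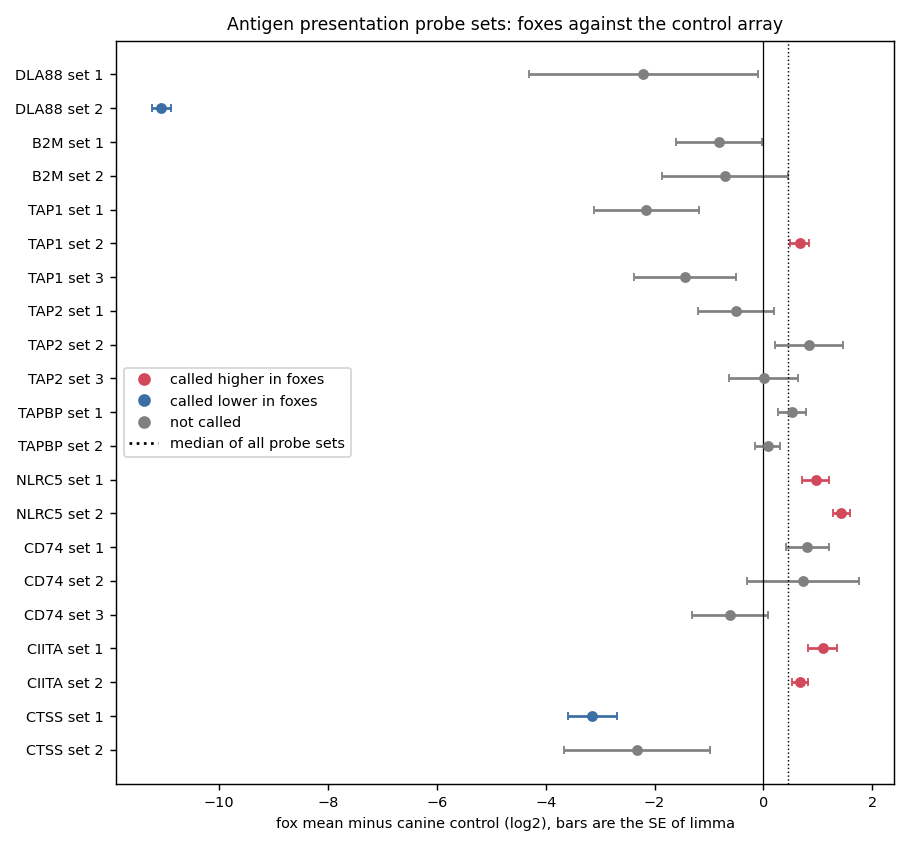
Mean of the 11 foxes minus the canine control array on the log2 scale (horizontal axis) for the 21 probe sets, with bars for the SE of limma. Red points were called higher in the foxes, blue points lower and grey points were not called, and the dotted line marks the median of all probe sets at 0.46. DLA88 set 2 lies at −11.06, a size set by the bottom of the scale in the foxes, and DLA88 set 1 at −2.20.

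Partners of the 2 routes gave mixed calls against the control. In class I, 3 of 19 were higher in the foxes and 6 lower, beside 44.6% and 18.5% of all genes. PDIA3 differed by −3.51 (SE 1.39), the lectin chaperone CANX by −2.30 (SE 0.63) and FCGRT, the class I-like Fc receptor, by −1.84 (SE 0.33). In class II, 2 of 18 were higher and 4 lower. DLA-DQA1, a class II alpha chain, differed by −4.22 (SE 0.50), the protease CTSH by −2.56 (SE 0.27) and the peptide exchanger DLA-DMA by −2.11 (SE 0.63). Of the 18 genes for transcription and interferon signals, 5 were higher and 2 lower, with NFYB, a subunit of the factor that binds the Y box, at −2.65 (SE 0.51). ATF1, a relative of the X box factor CREB1, differed by 1.41 (SE 0.18). Median differences were −0.997, −0.79 and 0.50 for the 3 lists and 0.53 for all genes. Against the control, B cell genes were higher in the foxes for 11 of 13, monocyte genes for 5 of 9 and dendritic cell genes for 6 of 10, with 0 lower in each, while all 11 liver and gut genes were lower. Median differences of the B cell, monocyte and dendritic cell lists were 0.70, 1.08 and 0.75, beside 0.53 for all genes. The part of these cells and organs in the differences was not tested.

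Within foxes 1 to 8, with foxes 9, 10 and 11 left out, some members moved together. Among foxes 1 to 8, fox 2 had the highest actin 3' minus middle difference (5.21), and fox 7 was next at 3.46. Its GAPDH difference was the highest too (3.19, with fox 4 next at 3.02). All 36 pairs of the 9 genes were tested by exact two-sided permutation, each gene by its set 1, and 6 pairs passed an adjusted p under 0.05 by Pearson's r, against 0 by Spearman's rho (16 and 11 at an unadjusted p under 0.05). B2M and TAP2 had r = 0.93 (exact p 9.18e-04, adjusted p 0.0292) and rho = 0.90 (exact p 0.00456, adjusted p 0.0923). Without the 2 foxes farthest from the median of B2M, r was 0.99 (exact p 0.00417, 6 foxes). B2M and TAPBP ran opposite, with r = −0.90 (exact p 0.00206, adjusted p 0.0292) and rho = −0.88 (exact p 0.00724, adjusted p 0.0923), and r = −0.83 without the 2 farthest foxes (exact p 0.0458). Foxes 2, 4 and 8 had the most B2M and foxes 1, 5 and 6 the least. Among foxes 1 to 8, the array SD was highest and lowest in the same foxes. It was 1.76, 1.79 and 1.78 in foxes 2, 4 and 8, and 1.60, 1.61 and 1.64 in foxes 1, 5 and 6. Whether relations over foxes 1 to 8 go with the array SD was not tested.

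CD74, CIITA and NLRC5 formed a second set of pairs, all with their top value in fox 2. Whether the probe sets of CD74 and NLRC5 read these fox genes was not tested. CD74 and CIITA had r = 0.91 (exact p 0.00263, adjusted p 0.0292) and rho = 0.83 (exact p 0.0154, adjusted p 0.0923). NLRC5 and CD74 had r = 0.90 (exact p 0.00325, adjusted p 0.0292) and rho = 0.74 (exact p 0.0458, adjusted p 0.15). NLRC5 and CIITA had r = 0.89 (exact p 0.00461, adjusted p 0.0332) and rho = 0.76 (exact p 0.0368, adjusted p 0.15). TAP2 and CIITA, across the 2 routes, had r = 0.87 (exact p 0.00561, adjusted p 0.0336) and rho = 0.83 (exact p 0.0154, adjusted p 0.0923). Leaving out the 2 foxes farthest from the median of the first gene gave r of 0.84 (exact p 0.0389), 0.64 (exact p 0.182), 0.78 (exact p 0.0778) and 0.62 (exact p 0.206) for these 4 pairs in the same order, each over 6 foxes. With so few foxes, a lost p does not show which foxes a relation rests on. Without fox 2 no pair passed, B2M and TAP2 being at r = 0.94 (exact p 0.00933, adjusted p 0.249, 7 foxes).

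**Figure D4:**
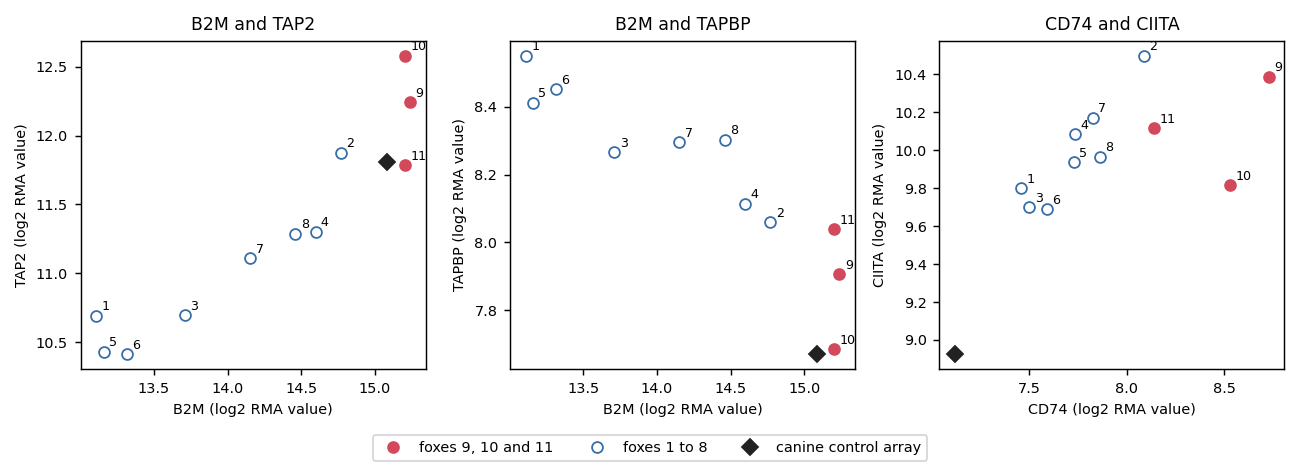
Log2 RMA values of 2 genes per panel, each by its set 1: B2M against TAP2, B2M against TAPBP, and CD74 against CIITA. Points are single arrays with the fox number beside them: red filled circles are foxes 9, 10 and 11, open blue circles are foxes 1 to 8 and the black diamond is the canine control. In foxes 1 to 8 TAP2 climbs with B2M (r = 0.93) and TAPBP declines (r = −0.90), and fox 2 lies at the top for CD74 and CIITA.

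Against 6 marker lists and the GAPDH measure, 63 relations in foxes 1 to 8, none passed an adjusted p of 0.05. The nearest was B2M with the monocyte mean, at r = 0.96 (exact p 0.00149, adjusted p 0.0938) and rho = 0.90 (exact p 0.00456, adjusted p 0.144). It stood at r = 0.98 without the 2 foxes farthest from the median (exact p 0.00694) and without fox 2 (exact p 5.95e-04, adjusted p 0.0375). B2M was also close to the neutrophil mean, with r = 0.88 (exact p 0.00484, adjusted p 0.133) and the same rho (exact p 0.00456, adjusted p 0.144), and r = 0.80 without the 2 farthest foxes (exact p 0.0681). TAP2 had r = 0.85 with the neutrophil mean (exact p 0.00856, adjusted p 0.133; rho = 0.71, exact p 0.0576) and r = 0.84 with the monocyte mean (exact p 0.0127, adjusted p 0.133; rho = 0.81, exact p 0.0218). Without the 2 farthest foxes these were 0.88 (exact p 0.0194) and 0.91 (exact p 0.0167). TAPBP ran opposite to the monocyte mean (r = −0.83, exact p 0.0121, adjusted p 0.133) and the neutrophil mean (r = −0.80, exact p 0.0185, adjusted p 0.133). For these, rho was −0.69 (exact p 0.0694) and −0.64 (exact p 0.0962), and r −0.79 and −0.47 without the 2 farthest foxes. CD74 with the neutrophil mean had r = 0.80 (exact p 0.0168, adjusted p 0.133) and rho = 0.83 (exact p 0.0154), and r = 0.44 without the 2 farthest foxes. CIITA with the B cell mean had r = 0.80 (exact p 0.019, adjusted p 0.133) and rho = 0.69 (exact p 0.0694, adjusted p 0.336), and r = 0.21 without the 2 farthest foxes (exact p 0.669). TAP2 with the GAPDH measure had r = 0.81 (exact p 0.0146, adjusted p 0.133) and rho = 0.83 (exact p 0.0154, adjusted p 0.22), and r = 0.48 without the 2 farthest foxes (exact p 0.324).

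Probe sets of the same gene were set against each other as well, over 15 pairs in foxes 1 to 8 by exact permutation. The 2 sets of B2M gave r = 0.98 (exact p 4.46e-04, adjusted p 0.0067) and rho = 0.95 (exact p 0.00114, adjusted p 0.0171), and r = 0.99 without the 2 farthest foxes. It was the only pair of the 15 that passed. Sets 1 and 2 of TAP2 had r = −0.82 (exact p 0.0175, adjusted p 0.13) and rho = −0.74 (exact p 0.0458, adjusted p 0.229), and r = −0.96 without the 2 farthest foxes. Sets 1 and 2 of CIITA also ran opposite, with r = −0.75 (exact p 0.0464, adjusted p 0.139) and rho = −0.54 (exact p 0.175, adjusted p 0.437), and r = −0.05 without the 2 farthest foxes. Sets 1 and 3 of CD74 had r = 0.08 (exact p 0.842) and rho = 0.07 (exact p 0.882), sets 1 and 2 of CD74 had r = 0.44 (exact p 0.272) and rho = 0.43 (exact p 0.299), and the sets of NLRC5 had r = 0.26 (exact p 0.526) and rho = −0.05 (exact p 0.935). The pairs of CD74, CIITA and NLRC5 above were thus read from set 1 alone, and other probe sets of these genes did not follow it closely. With the probe sets of each gene averaged, r was 0.60 for CD74 and CIITA, 0.67 for NLRC5 and CD74 and 0.75 for NLRC5 and CIITA. In the same setting, r of B2M and TAP2 was 0.23, and after quantile normalization again over the foxes it was 0.39.

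The genes whose values were most like those of DLA88 and CD74 over foxes 1 to 8 were sought among genes above the median level, by Pearson's r and with no test, since they were picked for it. For DLA88, among 7268 genes, they were CFD (r = 0.93), ATP6V1C2 (0.93), TYMS (0.93), ABCC1 (0.92) and ATP2B4 (0.91). CFD, complement factor D, read 12.86 to 13.71 in foxes 9, 10 and 11, and between 8.91 and 10.17 in foxes 1 to 8. ATP2B4 lay above in foxes 9, 10 and 11 too (10.13 to 10.81, against 9.01 to 10.03). ATP6V1C2 (8.67 to 8.89, against 8.82 to 9.14), TYMS (8.65 to 9.33, against 7.88 to 8.98) and ABCC1 (7.96 to 8.19, against 8.04 to 8.52) overlapped. For CD74, among 7267 genes, they were STMP1 (r = 0.99), GYPC (0.99), ALAS2 (0.98), PCSK4 (0.98) and RFX4 (0.98). GYPC, a red cell membrane glycoprotein, and ALAS2, which starts haem synthesis in maturing red cells, are both erythroid. The neighbours of CD74 rest on its set 1 alone, with which its sets 2 and 3 had r = 0.44 and 0.08 over foxes 1 to 8. Whether that set reads fox CD74 was not tested. ALAS2 read 13.74 to 15.05 in foxes 9, 10 and 11, and between 10.89 and 14.95 in foxes 1 to 8, where fox 2 was highest, and r of ALAS2 with CD74 was 0.98 without fox 2.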

How the data were processed

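RNA from 11 samples labelled Arctic fox blood cells and from 1 canine control, also labelled blood, was hybridised to Affymetrix Canine Genome arrays. The authors deposited log2 values made by RMA, and the submitters' processing notes name Affymetrix Expression Console. Neither its version nor joint normalization of all 12 arrays is stated there. Of 43035 probe sets, 111 array controls stayed out of tests. No value was missing and there is no detection call. The Arctic fox RefSeq annotation (ASM1834538v1), used for names and gene order only, holds 7 of the 9 symbols, and sequences were not used here. Each gene was read by its probe set of highest mean on the 12 arrays (set 1). Foxes were compared with the control by limma 3.58.1 in R 4.3.3 (lmFit and eBayes) with Benjamini-Hochberg adjustment over all 42924 probe sets at 0.05, after a test on simulated data. Relations over foxes 1 to 8 used exact two-sided permutation, adjusted per family. Named from each list were up to 5 genes with the largest absolute difference from the control and up to 5 with the largest SD, and for DLA88 and CD74 the 5 genes of highest r. ERAP1, ERAP2, DLA-64, DLA-79, DLA-DOA, RFX5, RFXANK and RFXAP were named after their values were seen. The members and lists were chosen with earlier results of these data known.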

Additional observations from a re-analysis of the deposited data

How the results depend on the processing

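No paired analysis was possible, because the labels link no fox to the control and there is 1 control array. Of the 21 probe sets, 5 were called higher in foxes as deposited, 7 without foxes 9, 10 and 11, 3 when arrays were centred and 2 with an absolute difference of at least 1. Called lower were 2 as deposited, 1 with low-level probe sets left out and 7 without foxes 9, 10 and 11. By set 1 alone, 3 genes were called as deposited, 7 without foxes 9, 10 and 11, and 3 to 5 when each fox was left out in turn (5 without fox 10, TAP1 and TAPBP being added). Of all 42924 probe sets, 18091 were called higher and 8092 lower as deposited, and 21078 and 9840 without foxes 9, 10 and 11. Called higher were 9914 with centred arrays and 5179 with a difference of at least 1. With low-level probe sets left out 9104 were called higher and 3698 lower, but fewer probe sets were tested there. Of the 21, 11 spread by an SD of 0.5 or more, or 4 without foxes 9, 10 and 11, and 5 reached an SD of at least 1. By set 1 these counts were 4 genes, 2 and 2, and 2 after quantile normalization again. The 6 pairs of members became 0 by Spearman's rho, without the 2 farthest foxes, after quantile normalization again, with probe sets of a gene averaged, and without fox 2, an alternative chosen after seeing the data. The 0 relations with marker lists (16 at an unadjusted p under 0.05) became 1 with the mean of all probe sets and 1 without fox 2, both B2M with monocyte genes. Differences that changed sign were uncalled ones. After quantile normalization again they were 0.48 for B2M set 2, 0.53 and −0.11 for TAP2 sets 1 and 3, and −0.20 for TAPBP set 2. With centred arrays they were −0.26 for TAP2 set 3 and −0.19 for TAPBP set 2. TAP2 set 1 was at 0.12 with the mean of all probe sets. TAP2 set 3 was at −0.30 without foxes 9, 10 and 11 and between −0.13 and 0.10 with each fox left out, below 0 without fox 2, 9, 10 or 11. The causes were not tested. The values carry no detection call, and 1 control array gives no spread of its own.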
